A study of Mus musculus with 6 samples.

Results

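The 9 genes Ly6c2, Plac8, Chil3, Vcan, F13a1, Hp, Fn1, F10 and Emilin2 mark the Ly6C-high monocyte, the cell that leaves the blood for injured tissue. They were taken by gene symbol from a table of 46603 genes, and all 9 were among the 15440 genes with enough reads to be tested. Their levels were compared in CD11B+ cells of the kidney on day 3 after bilateral ischemia-reperfusion injury (IRI-AKI), between 3 PTEC DN RAR mice and 3 Cre- control mice. Both groups were male, 10 to 12 weeks old, had both renal pedicles clamped for 28 minutes, and carried Rosa26-LSL-RARaT403X, an allele for a dominant negative retinoic acid receptor (RAR) behind a stop that Cre removes. PTEC DN RAR mice also carried PEPCK-Cre, which is active in proximal tubule epithelial cells (PTECs), whereas the controls lacked Cre (PEPCK CRE-). By design the receptor was therefore blocked in the tubule and not in CD11B+ cells. The libraries were not searched for a check of the genotype labels. CD11B+ cells were taken from the digested kidney with magnetic beads, polyA RNA was sequenced, and each library stands for 1 mouse. Gene positions are those of GENCODE M21 on GRCm38.

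Ly6C-high monocytes are made in the bone marrow, leave it with the help of the chemokine receptor CCR2, and enter the kidney in the first days after injury. In tissue they either disappear or lose Ly6C and become macrophages. They carry an antimicrobial and adhesive program, and several of their secreted products join in clotting and in the provisional matrix that forms at a wound. The 9 genes therefore fall into 3 sets of roles, namely surface and granule products of the young monocyte (Ly6c2, Plac8, Chil3, Hp), clotting factors (F13a1, F10) and matrix glycoproteins (Fn1, Vcan, Emilin2).

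Of the 9 genes, 7 were lower in PTEC DN RAR mice and 0 were higher. The genes that fell were F13a1, Fn1, Vcan, Emilin2, Chil3, F10 and Plac8, by 5.09-fold for F13a1 down to 1.74-fold for Plac8. The test was the quasi-likelihood F test of edgeR on raw counts, with Benjamini-Hochberg adjustment over all 15440 genes and a threshold of 0.05. By that test 17.1% of all genes were lower and 23.6% were higher. The same 7 genes had no overlap between groups, with every PTEC DN RAR library under every control, which held for 24.2% of all genes in that direction. All 9 log2 fold changes were negative, 8 of them at an unadjusted edgeR p under 0.05, as were 22.0% of all genes in that direction. DESeq2 and limma-voom also called 7 of the 9 lower and 0 higher. Over all 15440 genes, DESeq2 called 3278 lower and 3548 higher, and limma-voom 2589 and 3566. The fold changes had a median of -1.07 over the 9 genes, against 0.04 over all genes tested. Summed over the 9 genes, the level was 2928, 3292 and 2953 CPM (read counts scaled to a common library size) in controls and 1112, 1036 and 1055 CPM in PTEC DN RAR mice. In bulk RNA, fewer cells of a type and less RNA of a gene per cell cannot be told apart. Emilin2, Chil3, F13a1 and Fn1 appear in gene ontology lists that the study drew from genes lower in these same libraries, so their direction is not independent evidence.

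**Figure D1:**
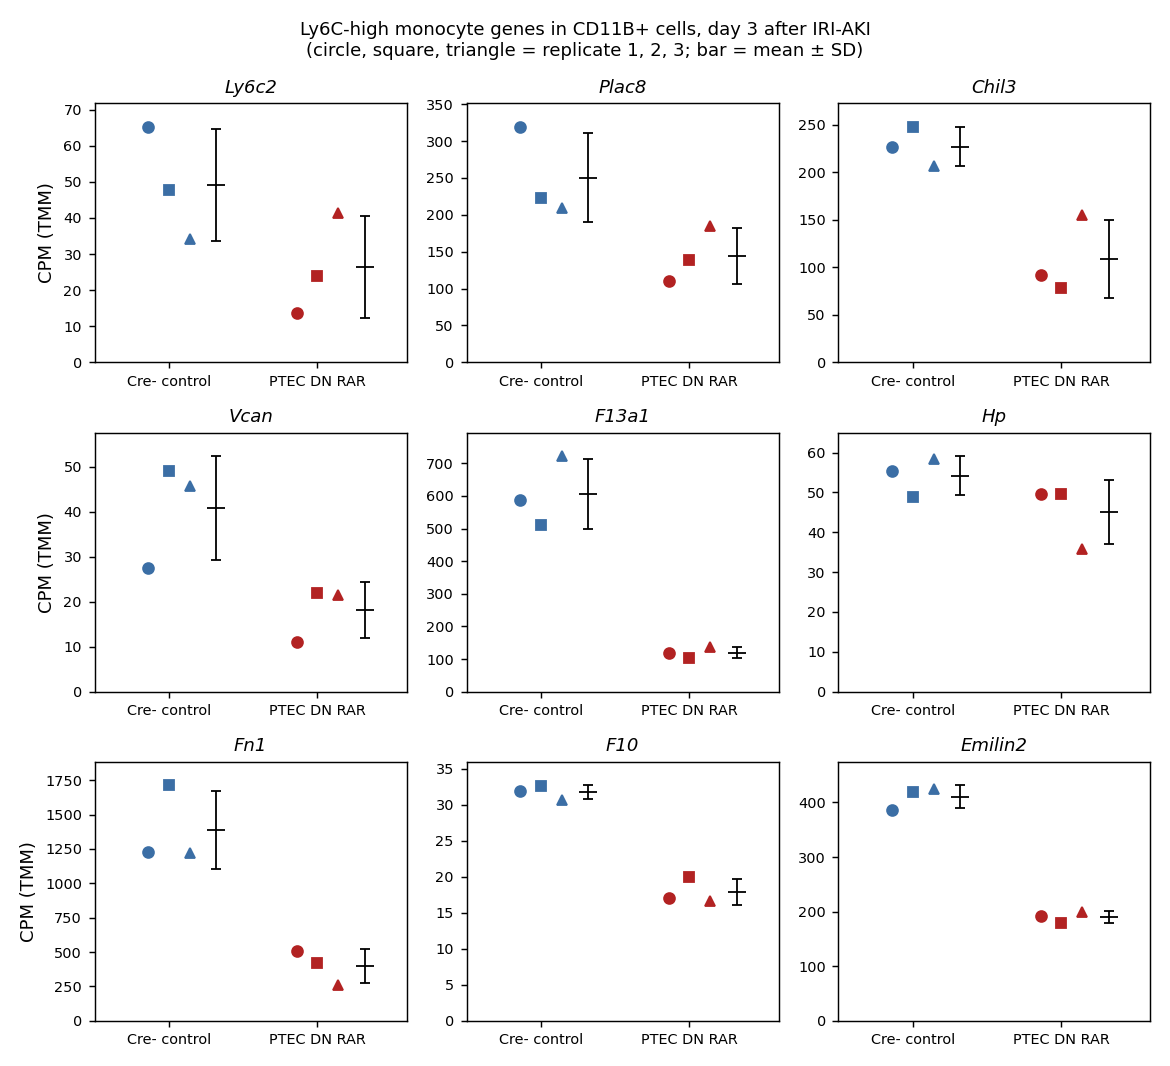
Level of each of the 9 genes in CPM after TMM scaling (y axis, from 0) in the 3 Cre- control (blue) and 3 PTEC DN RAR libraries (red), with circles, squares and triangles for replicates 1, 2 and 3 and black bars for mean ± SD. The groups are apart for 7 genes and overlap for Ly6c2 and Hp.

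The libraries held 29318041 to 46517005 reads on genes, so that 3 reads, taken as the lower limit, correspond to 0.0645 to 0.102 CPM, and the 9 genes had 462 to 51013 reads per library. CPM values are scaled by the trimmed mean of M values (TMM). Itgam, which encodes CD11B itself, was at 1737, 1959 and 1995 CPM in controls and 1366, 1303 and 980.3 CPM in PTEC DN RAR mice (log2 fold change -0.64, SE 0.14, edgeR adjusted p = 0.00818). Ptprc, the pan-leukocyte antigen CD45, was at 805 to 1064 CPM over the 6 libraries (log2 fold change -0.11, edgeR adjusted p = 0.534). Of 10 proximal tubule markers, 10 were higher in PTEC DN RAR mice, against 23.6% of all genes. The 10 markers summed to 539 to 734 CPM in controls and 1672 to 2587 CPM in PTEC DN RAR mice. Of 6 endothelial markers, 6 were higher, at 69.3 to 102 against 194 to 234 CPM in sum. Mitochondrial transcripts took 5.03% to 8.77% of counts in controls and 10.4% to 12.1% in PTEC DN RAR mice. The part of tubule RNA, endothelial RNA and mitochondrial share in the results for the 9 genes was not tested apart from the fits with other scaling and with a tubule covariate given further on.

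Ly6c2 (chr15:75108158-75111970, minus strand) encodes the Ly6C surface antigen by which these monocytes are sorted. It was at 65.2, 47.7 and 34.2 CPM in controls 1, 2 and 3, and at 13.5, 24.0 and 41.5 CPM in PTEC DN RAR replicates 1, 2 and 3. PTEC DN RAR replicate 3 lay above control replicate 3, so the groups overlapped, and the largest value in PTEC DN RAR mice was 3.06 times the smallest. Controls averaged 49.0 ± 15.5 CPM (SD, n = 3), and PTEC DN RAR mice 26.3 ± 14.1 CPM. The log2 fold change was -0.90 (95% interval -1.74 to -0.06, edgeR adjusted p = 0.0824). The name-giving gene of the cell type thus did not pass the adjusted threshold. Without PTEC DN RAR replicate 3 it did, with a log2 fold change of -1.43 and an edgeR adjusted p of 0.0121, and it did with no filter on low counts (adjusted p = 0.0209). In the other direction, the log2 fold change was -0.59 without PTEC DN RAR replicate 1 (edgeR adjusted p = 0.172) and -0.64 without control replicate 1 (adjusted p = 0.23).

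Ly6c2 has a close relative, Ly6c1, which endothelial cells express. In GENCODE M21 (GRCm38) both have a coding sequence of 393 bases, 97.7% identical, with 9 different bases and a longest identical run of 188 bases. Reads that fit both genes were left out of the counts, so Ly6c2 may be undercounted. Of all 50-base stretches of Ly6c2 transcripts, 14.4% also occur in transcripts of other genes, 266 in number with Ly6c1 among them. Of all 100-base stretches 5.81% do, in Ly6c1 alone, and the read length is not known. The first 120 coding bases are shown because 6 of the 9 differences, in capitals, stand there, and reads over them can tell the genes apart.
Ly6c2: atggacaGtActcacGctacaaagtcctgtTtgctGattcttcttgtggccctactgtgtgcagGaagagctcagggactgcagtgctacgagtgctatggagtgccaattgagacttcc
Ly6c1: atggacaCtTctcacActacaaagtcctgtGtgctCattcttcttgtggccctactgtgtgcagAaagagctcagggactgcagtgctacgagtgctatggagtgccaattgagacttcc
Ly6c1 was at 11.8, 23.0 and 6.18 CPM in controls and 21.0, 19.3 and 22.1 CPM in PTEC DN RAR mice (log2 fold change 0.61, edgeR adjusted p = 0.222), with control replicate 2 as high as the PTEC DN RAR libraries. Without that library its log2 fold change was 1.16 (edgeR adjusted p = 0.0119), and without control replicate 3 it was 0.21 (adjusted p = 0.56). The other relatives Ly6i and Ly6a had log2 fold changes of 0.41 and 0.48 (edgeR adjusted p = 0.115 and 0.198), and both passed the threshold without control replicate 1 (adjusted p = 0.0361 and 0.0179). Without control replicate 2 they were at 0.19 and 0.21 (edgeR adjusted p = 0.373 and 0.539), and Ly6a was at 0.21 without PTEC DN RAR replicate 3 (adjusted p = 0.589).

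The promoter of Ly6c2 is shown since the myeloid factor PU.1, which is needed to form monocytes, binds the letters GAGGAAGT. RefSeq windows of 300 bases (250 before to 50 after the start, GRCm38.p6) were at hand for 7 of the 9 genes, in 11 windows, and were searched on both strands. The motif occurred in 3.20% of all 32851 windows and in those of Ly6c2 and F13a1 among the 9 genes. Ly6c2 has 2 overlapping windows with different starts, and the same matches stand at -108 and +27 from the start of the one shown and at -142 and -8 from that of the other. In F13a1 the motif stands at +15 in 1 of its windows. Both windows shown are read on the minus strand of the genome, with the motif in capitals.
Ly6c2, chr15:75111922-75112221: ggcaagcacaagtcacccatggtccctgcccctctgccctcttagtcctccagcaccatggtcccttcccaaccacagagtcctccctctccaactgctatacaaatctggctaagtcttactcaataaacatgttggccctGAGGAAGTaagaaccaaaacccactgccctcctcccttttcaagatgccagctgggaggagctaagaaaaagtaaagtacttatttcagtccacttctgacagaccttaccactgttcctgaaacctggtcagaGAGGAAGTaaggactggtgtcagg
F13a1, chr13:37049164-37049463: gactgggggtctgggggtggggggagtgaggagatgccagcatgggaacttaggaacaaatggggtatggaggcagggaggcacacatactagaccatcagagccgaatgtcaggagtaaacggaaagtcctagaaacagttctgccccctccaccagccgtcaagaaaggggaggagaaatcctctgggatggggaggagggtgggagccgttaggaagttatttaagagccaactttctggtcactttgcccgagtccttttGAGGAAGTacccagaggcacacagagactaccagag
The C/EBP letters TTGCNNAA, searched on both strands, were found in 10.8% of all windows and in Plac8 alone among the 9 genes. TATAAA, searched on the given strand, was found in 8.32% of all windows and in Chil3 alone among the 9 genes. Such matches describe the letters and say nothing of binding. Spi1, the gene for PU.1, singled out after its values were seen, was at 340 to 389 CPM in controls and 327 to 392 CPM in PTEC DN RAR mice, with a log2 fold change of 0.01 (95% interval -0.22 to 0.24, edgeR adjusted p = 0.928).

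Plac8 (chr5:100553725-100572245, minus strand) encodes a small cysteine-rich protein of myeloid and plasmacytoid cells and is read as an early marker of monocytes fresh from the blood. It was at 319, 223 and 209 CPM in controls and at 110, 138 and 184 CPM in PTEC DN RAR mice. The groups did not overlap, but the lowest control was only 1.13 times the highest PTEC DN RAR library. Plac8 fell by 0.80 on the log2 scale (SE 0.21, edgeR adjusted p = 0.0169). The call was lost without PTEC DN RAR replicate 1 (log2 fold change -0.64, edgeR adjusted p = 0.0512) and when libraries were scaled on pan-leukocyte genes (-0.55, adjusted p = 0.0951). Its order over libraries was that of Ly6c2 in both groups, and the ratio of Ly6c2 to Plac8 overlapped between groups.

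Chil3 (chr3:106147554-106167564, minus strand) encodes the secreted chitinase-like protein Ym1, made by Ly6C-high monocytes and by alternatively activated macrophages. It was at 226, 248 and 207 CPM in controls and at 91.5, 78.3 and 155 CPM in PTEC DN RAR mice. All PTEC DN RAR libraries lay under all controls, with replicate 3 nearest to them. Chil3 fell by 1.07 on the log2 scale (SE 0.23, edgeR adjusted p = 0.00689). Its relative Chil4, among the genes that hold 26.9% of its 50-base and 4.93% of its 100-base stretches as well, had at most 3 reads in any library and was not tested. Another relative, Chil1, was at 3.05, 5.13 and 7.35 CPM in controls and 2.87, 3.23 and 1.86 CPM in PTEC DN RAR mice, with overlap (log2 fold change -0.96, edgeR adjusted p = 0.0479), and its call was lost without any 1 of 5 libraries, control replicate 1 being the exception (adjusted p = 0.0561 to 0.163).

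Hp (chr8:109575128-109579172, minus strand) encodes haptoglobin, which binds free hemoglobin and is made by liver, monocytes and neutrophils. It was at 55.3, 48.9 and 58.5 CPM in controls and at 49.6, 49.7 and 35.9 CPM in PTEC DN RAR mice. PTEC DN RAR replicates 1 and 2 lay within the range of the controls and replicate 3 lay under it. The log2 fold change of -0.27 did not pass the threshold (95% interval -0.58 to 0.04, edgeR adjusted p = 0.149). It was -0.17 without PTEC DN RAR replicate 3 (edgeR adjusted p = 0.245) and -0.058 when libraries were scaled on pan-leukocyte genes (adjusted p = 0.749). Hepatocyte markers were near 0, with Alb at 0.134 to 0.359 CPM in controls and 1.02 to 1.77 CPM in PTEC DN RAR mice, 2 of the 5 markers tested and both higher, and a summed level of at most 3.06 CPM. The other 3 markers, Apoa1, Ahsg and F2, were at 0 to 0.141 CPM. Cd163, the receptor for haptoglobin bound to hemoglobin, was at 10.7, 23.3 and 22.4 CPM in controls and 6.74, 15.6 and 6.72 CPM in PTEC DN RAR mice (edgeR adjusted p = 0.0773).

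F13a1 (chr13:36867178-37050244, minus strand) encodes the A chain of coagulation factor XIII, the transglutaminase that cross-links fibrin and fibronectin. It was at 586, 511 and 722 CPM in controls and at 118, 104 and 136 CPM in PTEC DN RAR mice. The lowest control was 3.76 times the highest PTEC DN RAR library, the widest gap of the 9 genes. The part of RNA from other cells in the results for F13a1 and F10 was not tested. F13a1 fell by 2.35 on the log2 scale (SE 0.15, edgeR adjusted p = 0.000134), which ranked 25 among the falls of all 15440 genes. F13a1 was also set against Ly6c2 and Ccr2 within each library. On the log2 scale the ratio of F13a1 to Ly6c2 was 3.17, 3.42 and 4.40 in controls against 3.12, 2.11 and 1.71 in PTEC DN RAR libraries, without overlap, and that of F13a1 to Ccr2 was -1.14, -1.29 and -0.89 against -2.74, -2.93 and -2.49. Against Ly6c2, PTEC DN RAR replicate 1 came close to control replicate 1, while against Ccr2 the groups were far apart. The ratio of Fn1 to Ly6c2 overlapped between groups, at 4.24, 5.17 and 5.16 in controls against 5.23, 4.13 and 2.67 in PTEC DN RAR libraries. The share of all genes without overlap on a ratio to Ly6c2 or Ccr2 was not computed.

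F10 (chr8:13037308-13056676, plus strand) encodes coagulation factor X, which as factor Xa turns prothrombin into thrombin. It was at 31.9, 32.5 and 30.7 CPM in controls and at 17.1, 19.9 and 16.7 CPM in PTEC DN RAR mice. Controls varied little, with a coefficient of variation of 2.96%, and no library crossed between groups. F10 fell by 0.82 on the log2 scale (SE 0.10, edgeR adjusted p = 0.000735). Of the 10 other clotting and fibrinolysis genes listed, 3 were lower and 0 were higher (all genes: 17.1% and 23.6%). They were F7, the factor VII that starts the extrinsic pathway, at 11.6, 7.35 and 11.8 against 2.27, 1.44 and 1.44 CPM, Serpinb2, the plasminogen activator inhibitor PAI-2, and Plaur, the urokinase receptor. One other gene was higher at an unadjusted p under 0.05 in edgeR, DESeq2 and limma-voom alike. The log2 fold changes of the 3 lower genes were -2.58, -2.35 and -0.86 (edgeR adjusted p = 0.000324, 0.0104 and 0.000748). Serpinb2 was at 17.1 CPM in control replicate 2 against 3.51 and 5.42 CPM in the other controls, and without that library its log2 fold change was -1.43 (edgeR adjusted p = 0.0114). The median of these 10 genes was -0.21.

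Fn1 (chr1:71585520-71653200, minus strand) encodes fibronectin, a matrix glycoprotein that cells bind through integrins and that factor XIII cross-links to fibrin. It was the most abundant of the 9 by reads, at 1229.5, 1711 and 1221 CPM in controls and at 509, 422 and 264 CPM in PTEC DN RAR mice. Control replicate 2 was the highest library and PTEC DN RAR replicate 3 the lowest, and the groups were apart by 2.40-fold at their nearest points. Fn1 fell by 1.80 on the log2 scale (SE 0.24, edgeR adjusted p = 0.000933). Large peritoneal macrophages also make fibronectin, and their markers were read beside Fn1. Of 8 such markers, 4 were lower (Prg4, Alox15, Naip1 and Selp, log2 fold changes -3.69, -3.04, -2.63 and -1.97) and 0 were higher (all genes: 17.1% and 23.6%). The 4 that did not pass had log2 fold changes of -1.15 to 0.13. The sum of the 8 was 72.2 to 253 CPM in controls and 26.4 to 51.7 CPM in PTEC DN RAR mice. Control replicate 2 stood apart there, with Prg4 at 101 CPM against 19.2 and 28.0 CPM in the other controls and the defining factor Gata6 at 3.19 CPM against 0.512 and 0.158 CPM. Without that library the log2 fold changes of Prg4, Alox15, Naip1 and Selp were -2.67, -1.86, -2.44 and -1.22 (edgeR adjusted p = 0.0167, 0.0117, 0.00795 and 0.0203). Fn1 still fell without it, by 1.66 (edgeR adjusted p = 0.00279), and the 4 markers' part in the rest was not tested.

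Vcan (chr13:89655312-89742509, minus strand) encodes versican, a large proteoglycan that binds hyaluronan. It was at 27.6, 49.1 and 45.7 CPM in controls and at 11.0, 22.0 and 21.4 CPM in PTEC DN RAR mice. In both groups replicate 1 was lowest, and the groups did not overlap. Vcan fell by 1.17 on the log2 scale (SE 0.29, edgeR adjusted p = 0.0123). Fibroblasts also make versican. Of the 6 fibroblast markers tested, 5 were higher (2 with limma-voom), against 23.6% of all genes. The summed level of the fibroblast markers overlapped between groups, at 62.1 to 74.7 CPM in controls and 62.5 to 172 CPM in PTEC DN RAR mice. The part of fibroblast RNA in the result for Vcan was not tested. Col1a1 was among them (log2 fold change 1.01, edgeR adjusted p = 0.0342), although its call was lost without any 1 of the 5 libraries other than PTEC DN RAR replicate 3 (adjusted p = 0.0573 to 0.126), with a log2 fold change of 0.64 without PTEC DN RAR replicate 2.

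Emilin2 (chr17:71252172-71311978, minus strand) encodes an elastin-associated glycoprotein of the extracellular matrix. It was at 387, 420 and 425 CPM in controls and at 193, 179 and 200 CPM in PTEC DN RAR mice. The libraries of each group lay close together, with coefficients of variation of 5.02% and 5.65%, and the lowest control was 1.94 times the highest PTEC DN RAR library. Emilin2 fell by 1.11 on the log2 scale (SE 0.09, edgeR adjusted p = 0.000187).

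**Figure D2:**
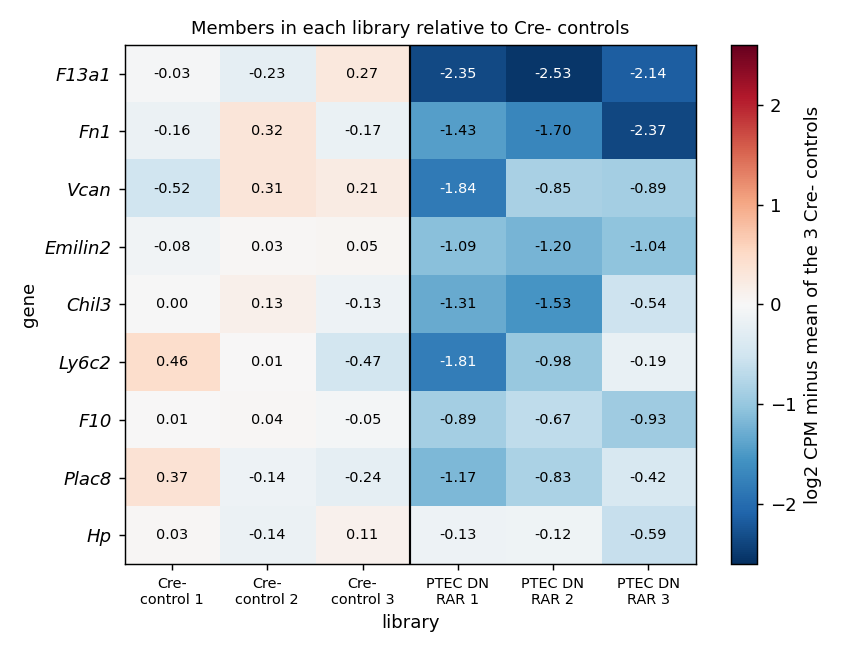
Log2 CPM of each gene (y axis) in each library (x axis) minus the mean of the 3 Cre- controls for that gene, with blue for lower and red for higher. F13a1, Emilin2 and F10 are alike in the 3 PTEC DN RAR libraries, whereas Ly6c2, Plac8 and Chil3 are nearest to controls in replicate 3 and Fn1 and Hp farthest from them there.

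Compared per kilobase of exon, the order of levels in controls was led by Plac8 (157 CPM per kb), Chil3 (139) and Fn1 (119), followed by F13a1 (90.0) and Emilin2 (74.6), with Hp (33.8), Ly6c2 (17.9), F10 (11.6) and Vcan (2.82) last. In PTEC DN RAR mice Plac8 (90.5) and Chil3 (66.4) stayed first, and Emilin2 (34.6), Fn1 (34.1), Hp (28.1) and F13a1 (17.7) lay next to each other.

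The 9 genes did not move as 1 block among the mice of a group. PTEC DN RAR replicate 3 had the highest level of 5 of them (Ly6c2, Plac8, Chil3, F13a1 and Emilin2) and the lowest of 3 (Hp, Fn1 and F10). Relative to the control mean, Ly6c2 was at -1.81, -0.98 and -0.19 (log2) in replicates 1, 2 and 3 of the PTEC DN RAR group, while Fn1 was at -1.43, -1.70 and -2.37. These 2 genes thus ran in opposite order in that group. Among controls, replicate 1 had the highest Ly6c2 and Plac8 and replicate 2 the highest Chil3, Vcan, Fn1 and F10. Over the 6 libraries, the correlation (Pearson) of each gene with the mean of all 9, itself included, ranged from 0.56 for Hp and 0.76 for Ly6c2 to 0.98 for F13a1, F10 and Emilin2, a description over 6 points that also holds the genotype difference.

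Divided by Ptprc within each library, 6 of the 9 genes stayed apart between groups, namely Chil3, Vcan, F13a1, Fn1, F10 and Emilin2. Each of the 6 lay lower in the PTEC DN RAR group, and on the same ratio 11.0% of all genes lay lower without overlap. For Plac8 the ratio overlapped, as it did for Ly6c2 and Hp. Divided by the summed complement genes C1qa, C1qb and C1qc of tissue macrophages, 8 of the 9 were lower without overlap between groups, Ly6c2 being the exception. On that ratio the same held for 19.1% of all genes. C1qa itself was higher in PTEC DN RAR replicates 1 and 2 than in any control, at levels given further on, and Hp overlapped between groups in CPM but not on this ratio. The log2 differences were between -0.40 for Hp and -2.46 for F13a1.

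Other genes of the Ly6C-high state, none of them among the 9, were read beside them. Of 11 such genes, 9 were lower and 0 were higher (all genes: 17.1% and 23.6%), with a median log2 fold change of -0.73. They included Thbs1 (thrombospondin 1, log2 fold change -1.87), Gda (guanine deaminase, -1.62), Ms4a4c (a tetraspan membrane protein, -1.14) and Ccr2 (-0.73). Ccr2, the receptor that brings these cells to tissue, was at 1292, 1249 and 1334 CPM in controls and at 786, 791 and 764 CPM in PTEC DN RAR mice (SE 0.09, edgeR adjusted p = 0.000691). Its groups were far apart beside the spread of libraries. Mgst1 and Clec4e, singled out because they did not pass, had log2 fold changes of -0.52 and -0.32 (edgeR adjusted p = 0.0512 and 0.275). Mgst1 was at -0.34 without control replicate 1 (edgeR adjusted p = 0.144) and at -0.72 without control replicate 2 (adjusted p = 0.0127). Clec4e was at -0.13 without PTEC DN RAR replicate 3 and at -0.50 without PTEC DN RAR replicate 1 (edgeR adjusted p = 0.496 and 0.142). Scaled on pan-leukocyte genes, 5 of these 11 genes were lower, and 6 of the 9, against 4.46% of all genes in that fit.

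The Ly6C-low state is that of the patrolling monocyte, which stays in vessels. Of 9 genes of that state, 4 (Ear2, Spn, Ace and Eno3) were higher by edgeR, against 23.6% of all genes. By limma-voom 4 were higher and by DESeq2 5, and 5 were higher at an unadjusted p under 0.05 with each tool. With these tools 0 were lower, also at an unadjusted p under 0.05, and the median log2 fold change was 0.43. The 5 genes that did not pass by edgeR had log2 fold changes of -0.20 to 0.43. Spn, the sialoglycoprotein CD43, was at 153, 223 and 162 CPM in controls and at 427, 438 and 234 CPM in PTEC DN RAR mice (log2 fold change 1.03, SE 0.24, edgeR adjusted p = 0.00993). Ear2, an eosinophil-associated ribonuclease, was at 6.56, 8.66 and 9.57 CPM against 19.7, 20.9 and 13.2 CPM (log2 fold change 1.12, SE 0.21, edgeR adjusted p = 0.00383). For both, PTEC DN RAR replicate 3, the library with the most Ly6c2 of its group, was the lowest of the group. Ace (log2 fold change 0.99, edgeR adjusted p = 0.00225) is also a gene of the proximal tubule, whose markers rose. Eno3 (0.64, adjusted p = 0.0265) lost its call without any 1 of the 5 libraries other than PTEC DN RAR replicate 3 (adjusted p = 0.0549 to 0.0954).

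**Figure D3:**
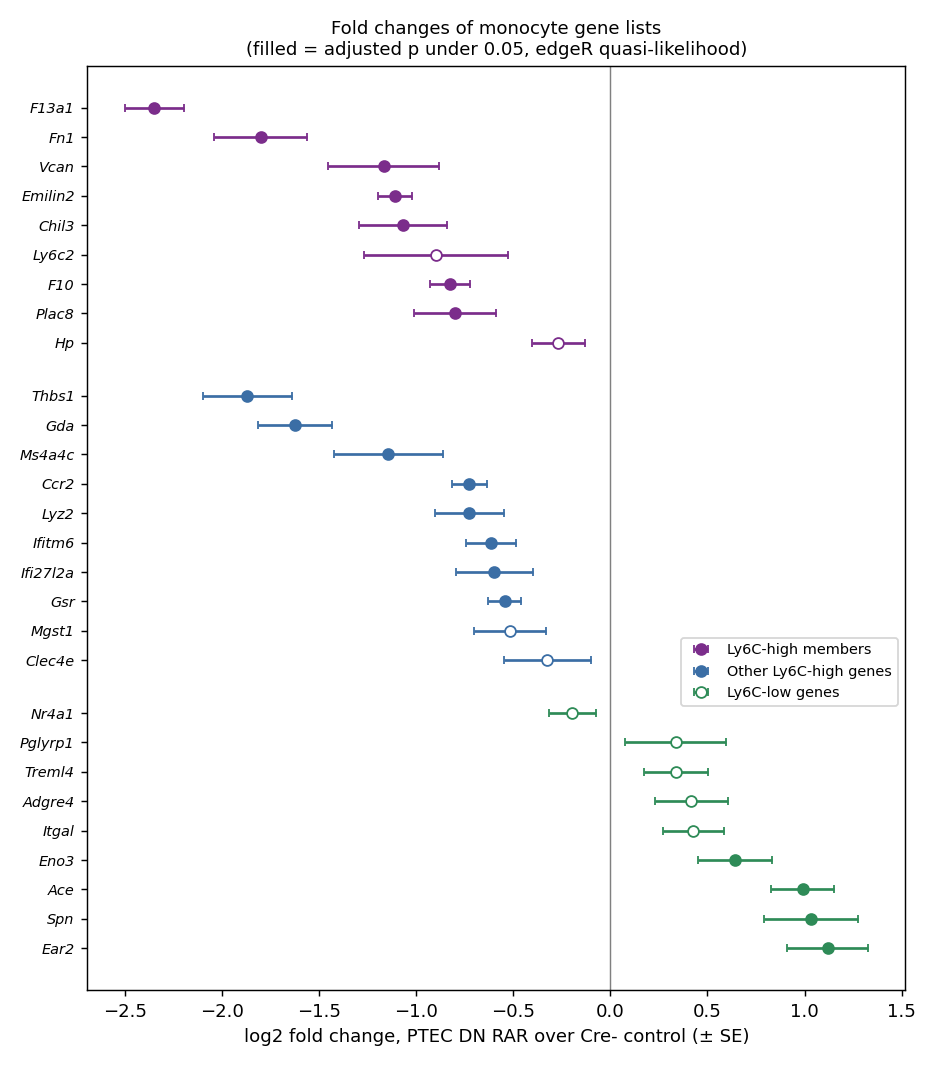
Log2 fold change of PTEC DN RAR over Cre- control (x axis, ± SE) for the 9 genes (purple), 10 of the 11 other Ly6C-high genes (blue) and 9 Ly6C-low genes (green), filled where the edgeR adjusted p was under 0.05. All Ly6C-high points shown lie left of 0 and 8 of the 9 Ly6C-low points lie right of it.

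Of 8 markers of tissue macrophages, 0 were lower and 2 were higher (all genes: 17.1% and 23.6%). By edgeR at an unadjusted p under 0.05, and with DESeq2 or limma-voom, 0 were lower as well. The higher genes were Cd74, the invariant chain of antigen presentation, and Cd81, a tetraspanin taken here as a marker of kidney-resident macrophages. Their log2 fold changes were 1.00 and 0.97 (edgeR adjusted p = 0.00539 and 0.00334). The 6 that did not pass had log2 fold changes of -0.01 to 0.26. The part of tubule and endothelial RNA in the result for Cd81 was not tested. C1qa was at 2570, 2360 and 2291 CPM in controls and 2991, 3112 and 2251 CPM in PTEC DN RAR mice, with overlap (log2 fold change 0.21, edgeR adjusted p = 0.268). Neutrophils, which CD11B beads also take, share S100a8, S100a9 and Hp with monocytes. Of 10 neutrophil markers, 5 were lower and 0 were higher (all genes: 17.1% and 23.6%). The lower ones were Mmp8, S100a9, S100a8, Cxcr2 and Retnlg (log2 fold changes -1.53, -1.36, -1.32, -1.21 and -0.83). The 10 markers summed to 471 to 849 CPM in controls and 299 to 426 CPM in PTEC DN RAR mice. Retnlg lost its call without any 1 of the 5 libraries other than control replicate 1 (edgeR adjusted p = 0.0722 to 0.135). The defining gene Ly6g was low throughout, at 0.282, 1.54 and 1.55 CPM in controls and 0.358, 0.518 and 0.339 CPM in PTEC DN RAR mice (edgeR adjusted p = 0.0776), although without control replicate 1 it passed (adjusted p = 0.00457). The part of neutrophil RNA in the results for Hp and Chil3 was not tested.

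Of 9 transcription factors of the monocyte line, 3 were lower, Cebpb and Maf among them, and 0 were higher (all genes: 17.1% and 23.6%). Cebpb, a factor of emergency myelopoiesis, was at 304, 200 and 287 CPM in controls and 146, 129 and 161 CPM in PTEC DN RAR mice (log2 fold change -0.86, SE 0.16, edgeR adjusted p = 0.00391). Maf, a factor of macrophage maturation, fell by 0.56 on the log2 scale (edgeR adjusted p = 0.00288). The 6 factors that did not pass had log2 fold changes of -0.23 to 0.08.

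Of 14 genes for receptors and processing enzymes of the 9 products, 5 were lower and 1 was higher (all genes: 17.1% and 23.6%). Tgm2, a tissue transglutaminase that like factor XIII cross-links fibronectin, was at 496, 433 and 629 CPM in controls and at 235, 232 and 243 CPM in PTEC DN RAR mice (log2 fold change -1.13, SE 0.13, edgeR adjusted p = 0.000579). Cd44, a receptor for hyaluronan, was at 352, 400 and 409 CPM against 234, 223 and 226 CPM (log2 fold change -0.76, SE 0.09, edgeR adjusted p = 0.000562). Hmox1, which breaks down the heme that haptoglobin and CD163 deliver, fell by 1.46 (SE 0.27, edgeR adjusted p = 0.00372). For these 3 genes the groups did not overlap. Itgb3, a subunit of integrins that bind fibronectin, was higher (log2 fold change 0.72, edgeR adjusted p = 0.0186) at under 6 CPM, and lost its call without control replicate 2 or PTEC DN RAR replicate 1 (adjusted p = 0.0723 and 0.0629).

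The genes outside the 9 whose levels ran most like the mean of the 9 over the 6 libraries were Rest, Rabgap1, Golga3, Bid, Pcgf5, Il21r, Prmt10 and Nrros. Their Pearson correlations were 0.995 to 0.999, among 8983 genes with a mean of at least 10 CPM, of which 478 (5.32%) had a correlation over 0.95. These are correlations over 6 points that hold the genotype difference, given as a description. Rest, a transcriptional repressor, was at 41.0 ± 0.17 CPM (SD, n = 3) among controls, and at 29.6 ± 1.28 CPM in the other group. Nrros, a myeloid protein that tethers latent TGF-beta, was at 322 ± 13.7 CPM and 202 ± 8.75 CPM, the largest fall of the 8, with a log2 fold change of -0.67 (edgeR adjusted p = 0.000709).

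The size of these differences moved with the scaling. Of the 27 pan-leukocyte genes, 8 were lower and 0 were higher (all genes: 17.1% and 23.6%). They had a summed level of 17272 to 18099 CPM in controls and 13682 to 16028 CPM in PTEC DN RAR mice. Scaled on their sum, the median over all genes moved from 0.04 to 0.26, and the 9 genes had a median of -0.81, which is -1.07 relative to all genes against -1.10 under TMM. Of the 9, 6 were then lower, against 4.46% of all genes. F13a1, Fn1, Emilin2, F10, Chil3 and Vcan kept their calls there and in each of the 6 fits with 1 library left out. With the mean of the proximal tubule markers in the model, 0 of the 9 passed the edgeR adjusted threshold and 3 were lower at an unadjusted p under 0.05, as were 1.66% of all genes. Their median log2 fold change in that fit was -1.09, which is -1.13 relative to all genes. In these 6 libraries tubule RNA and genotype cannot be told apart, since no library of one group reached the tubule level of the other.

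**Figure D4:**
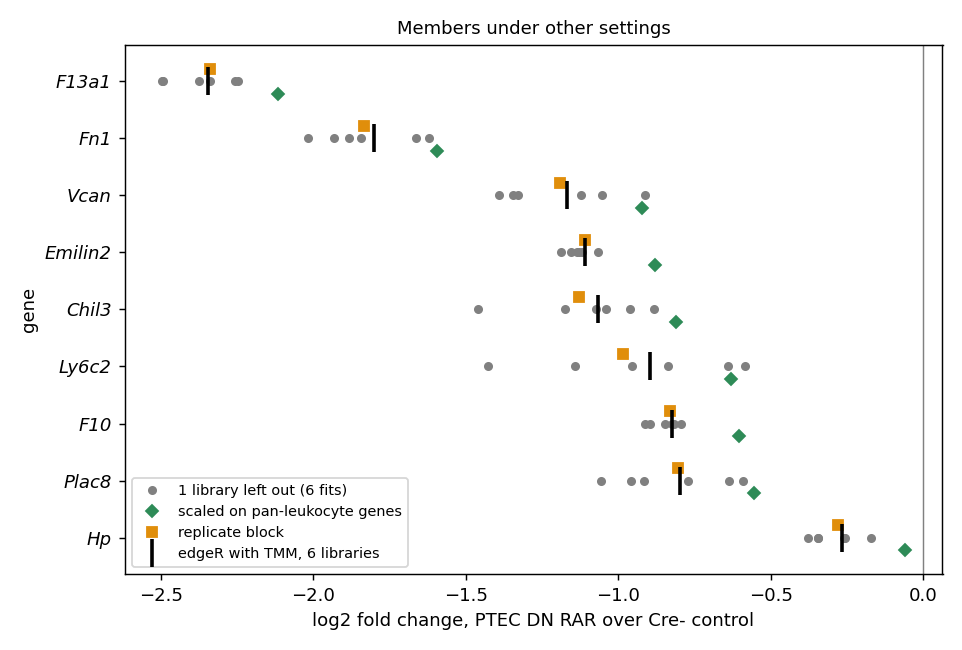
Log2 fold change of each of the 9 genes (y axis) with all 6 libraries under TMM (black bars), with 1 library left out (grey dots), scaled on pan-leukocyte genes (green diamonds) and with a replicate block (orange squares). Every point lies under 0, and the grey dots spread most for Ly6c2.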

How the data were processed

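RNA-Seq of CD11B+ cells was analysed for 3 PTEC DN RAR and 3 Cre- control mice, 1 library each. The authors deposited raw read counts per Ensembl gene. The submitters' processing notes name STAR 2.5.0a, HTSeq 0.6.1, edgeR, limma and GRCm38, without their roles. Read length and strandedness are not given in the sources used here. Lines that name no gene were left out. Of all alignments in the table, reads aligned to several places were 42.9% to 47.8%, reads on no gene 2.39% to 3.97% and ambiguous reads 0.457% to 0.527%, so near-identical genes are undercounted. Libraries differed by far more than counting noise, so none was a repeat.

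Low genes were removed by filterByExpr, libraries were scaled by TMM, and genotypes were compared in edgeR 4.0.16 (R 4.3.3) by its quasi-likelihood F test. The p-values measure the spread among these mice. An SE is the absolute log2 fold change over the square root of F, and the 95% intervals use the same degrees of freedom as the test. Alternatives used DESeq2 1.42.0, limma 3.58.1, other filters and scaling, a replicate block, a tubule covariate and leaving out each library. Coordinates and transcripts are from GENCODE M21, promoters from RefSeq, and figures were drawn with matplotlib 3.10.9.

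The 9 genes and all gene lists were chosen with earlier results of these data known. Named were all 9 genes, up to 4 called genes of each other list by size of fold change, near relatives, defining markers, and the 8 genes most correlated with the 9, at a mean of at least 10 CPM. Spi1, Cd163, Mgst1, Clec4e, Itgam and Ptprc were named after their values were seen. Some genes of the lists enter the counts and are not reported here by name.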

Additional observations from a re-analysis of the deposited data

How the results depend on the processing

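The count of 7 lower genes among the 9 was 6 to 8 with 1 library left out and 6 to 8 in the other fits, the tubule covariate apart, which gave 0 for the 9 and 0 for the 11 other Ly6C-high genes. Over all genes, the count of lower genes with 1 library left out was 1874 of 15961 (without control replicate 3) to 2824 of 15966 (without control replicate 1). In the other fits, the tubule covariate apart, it was 688 of 15440 (scaled on pan-leukocyte genes) to 3278 of 15440 (DESeq2). Scaling on pan-leukocyte genes gave 5 of those 11 against 9, and moved the calls over all genes from 2636 lower and 3640 higher (42.0% lower) to 688 and 4955 (12.2% lower). With 1 library left out, the median of the 9 was -1.35 to -0.91 and the count for the 11 genes was 8 to 10. The count of higher genes was 0 in every fit for the 9 and the 11 genes. Fibroblast markers were higher for 2 of 6 with limma-voom against 5, pan-leukocyte genes lower for 13 of 27 with DESeq2 against 8, and Ly6C-low genes higher for 7 of 9 scaled on pan-leukocyte genes and 0 with the tubule covariate, against 4. The log2 fold change of Spi1 turned to -0.026 with DESeq2, -0.026 with median-of-ratios factors and -0.015 with no filter, and ranged from -0.068 to 0.070 with 1 library left out, being negative without control replicate 2 or 3 or PTEC DN RAR replicate 1 or 2. That of Gata6 ranged from -1.72 to 0.69, the latter without control replicate 2. With the tubule covariate the signs turned for Serpinb2 (1.74), Prg4 (0.68), Alox15 (0.59), Gata6 (3.83), Lrp2 (-0.12), Ly6i (-0.56) and Ly6a (-0.29), and 1 gene of 15440 was called. The cause was not tested. Beyond the genes given above, Rabgap1 lost its call without PTEC DN RAR replicate 1 or 2 (adjusted p = 0.0713 and 0.0567) and Mgst1 gained one without control replicate 2 or PTEC DN RAR replicate 3 (adjusted p = 0.0127 and 0.0243).

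Replicate numbers were not taken to pair the mice. Deviations of same-numbered libraries correlated at -0.01, 0.21 and 0.03, and not every library correlated best with its own number. With 3 libraries per group these values cannot show whether same-numbered mice shared a day or a preparation. With the replicate block, 2606 genes were lower and 3612 higher, 7 of the 9 and 9 of the 11 genes were lower, and the median of the 9 was -1.11.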
